A study of Schizosaccharomyces pombe with 5 samples.

Results

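In fission yeast, 68 mRNAs held a larger share of the reads in every immunoprecipitate than in either input, with the Slr1p antibody and with non-immune rabbit IgG alike. They were chosen by their own values from the 6727 genes counted. Counts were divided by the library total and multiplied by 1000000 (CPM), and an mRNA was taken when it had at least 5 CPM in both inputs and at least 2.5 times the higher input in both Slr1p precipitates and in the IgG precipitate. Non-coding genes with SPNCRNA identifiers were left out, as were genes whose lower Slr1p value was at least 1.5 times the IgG value. Of 5041 genes with at least 5 CPM in both inputs, 73 passed the folds. They comprised the 68, 4 SPNCRNA genes and 1 gene, rpc10, that was higher with Slr1p.

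Slr1p is the Schizosaccharomyces pombe homolog of LARP1, an RNA-binding protein known in animals for binding the start of mRNAs for ribosomal proteins. All 5 libraries came from strain yAS99, labelled WT, grown in YES medium at 32 °C with shaking at 200 rpm and cross-linked with formaldehyde. The groups were 2 biological replicates precipitated with antibody AB2756 against Slr1p, 1 precipitate with non-immune rabbit IgG, and 2 biological replicates of input, which was total RNA taken by hot phenol with no antibody. Sequencing gave paired reads of 50 bp. The IgG precipitate has no replicate.

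RNA immunoprecipitation recovers the RNA that stays with a protein when an antibody pulls that protein out of a cell extract. A non-immune antibody recovers RNA that comes down with beads, antibody or aggregates, and an mRNA that it also raises is usually read as background of the method. In a growing yeast cell, much transcription and translation serves the assembly of ribosomes in the nucleolus, by a large set of processing factors, helicases and remodelling ATPases. Many such nucleolar and chromatin proteins carry stretches of lysine and glutamate, whose codons (AAA, AAG, GAA and GAG) are made of purines only.

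The Slr1p libraries held 63392249 and 65859940 counts, the IgG library held 12882920, and the input libraries held 64236988 and 62802923. The IgG library stood apart from the others, with the fewest reads and with 4.60% of them on mitochondrial genes, against at most 0.00148% in each other library. The 68 mRNAs took 1.41% and 1.37% of the Slr1p libraries, 3.04% of the IgG library, and 0.347% and 0.411% of the inputs. Their lowest counts were 1548 and 1408 in the Slr1p libraries, 264 in the IgG library, and 341 and 441 in the inputs. A CPM is a share of a library, so none of these values measures how much RNA was precipitated.

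The coding sequences of these mRNAs were rich in A and G, which the choice of members had not used. A and G made up a median of 57.0% of the coding bases in the 67 members with an annotated coding sequence, against 50.2% in the other 4500 coding genes with at least 5 CPM in both inputs. The identifier without an annotation was SPBC19C2.05_1. Shown here is the 60-base window of the coding strand with the most A and G, for 6 purine-rich members, for mdn1, whose whole coding sequence was at 51.0%, and for 2 members with few purines. Coordinates and sequences are RefSeq's for assembly ASM294v3, and capitals mark the longest run of A and G within the window. Where runs are equally long, as in gle1 and gln1, only the first is marked.
mis3, chrII:2606846-2606905, + strand: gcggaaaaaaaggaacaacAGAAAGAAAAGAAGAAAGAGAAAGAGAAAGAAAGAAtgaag
rpa34, chrII:1764394-1764453, + strand: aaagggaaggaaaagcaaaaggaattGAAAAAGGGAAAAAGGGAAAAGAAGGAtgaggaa
gle1, chrII:247700-247759, + strand: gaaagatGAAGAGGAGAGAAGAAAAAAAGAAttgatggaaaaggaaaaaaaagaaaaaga
pxr1, chrI:5010374-5010433, + strand: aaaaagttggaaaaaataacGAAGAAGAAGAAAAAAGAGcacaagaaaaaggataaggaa
leo1, chrII:3053816-3053875, - strand: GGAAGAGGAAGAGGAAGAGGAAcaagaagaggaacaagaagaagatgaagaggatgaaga
nup211, chrIII:1569703-1569762, + strand: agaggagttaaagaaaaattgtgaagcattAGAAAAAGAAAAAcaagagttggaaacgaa
mdn1, chrIII:1912602-1912661, + strand: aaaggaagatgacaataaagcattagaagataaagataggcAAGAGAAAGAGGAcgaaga
gln1, chrI:1597147-1597206, - strand: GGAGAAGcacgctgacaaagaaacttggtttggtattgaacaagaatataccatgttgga
scr1, chrII:1753788-1753847, + strand: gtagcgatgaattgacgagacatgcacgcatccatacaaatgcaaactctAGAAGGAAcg

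These windows lie in coding exons and show how far the members differ. The mis3 window has 56 purines, with a run of 36. The rpa34, gle1 and leo1 windows have 56 purines each, pxr1 has 53, mdn1 has 50 and nup211 has 48. In contrast, the best window of gln1 has 38 and that of scr1 has 37. Over the 67 annotated members the best window held a median of 47 purines and the longest run 15 bases, against 41 purines and 11 bases in the other coding genes. A longer coding sequence has more windows to choose from. The median coding length was 1140 bases in members and 1179 bases in the others, but the upper quartile was 2637 bases in members and 1797.75 bases in the others, and the part of length in these 2 measures was not tested.

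The shift in purine share covered most of the members. Of the 67, 42 lay above 55.1%, the 90th percentile of the other coding genes, and 43 were at or above 55%. The members ranged from 40.3% to 66.8%. The highest shares were in rrp1402 (66.8%), cgr1 (66.4%), snp27 (65.6%) and the uncharacterised SPAC144.01 (65.5%). A group of 8 members lay below 50%: gln1, met10, scr1, fex1, SPAC25B8.12c, SPAC16E8.18, SPBC56F2.05c and SPAPB18E9.05c. Applied without the IgG library, which stood apart, the rule took 92 mRNAs with a median purine share of 57.0%. All 68 are among these 92, so their median largely repeats that of the members. Applied without the Slr1p libraries the rule took 599 mRNAs, the 68 again included, with a median of 51.2%.

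**Figure D1:**
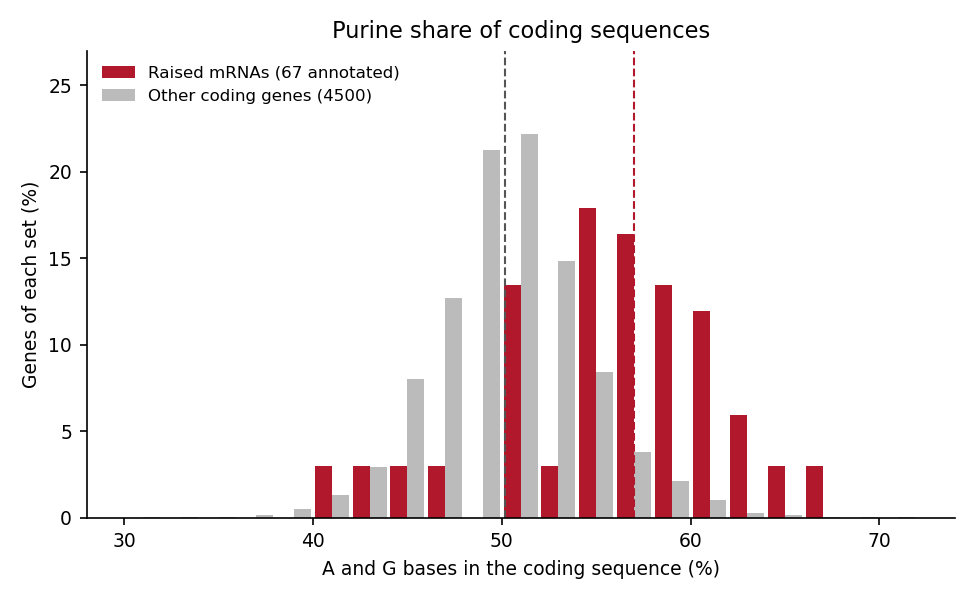
Share of genes (vertical axis, % of each set) in steps of 2 percentage points of coding purine share (horizontal axis, % A and G), for the 67 annotated members (red) and the 4500 other coding genes (grey), with dashed lines at the medians of 57.0% and 50.2%. Most red bars stand to the right of the grey peak, and a small group of 8 members lies below 50%.

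Lysine and glutamate codons, which are all purine, were also frequent. They were 20.2% of all codons in the median member, against 13.0% in the other coding genes, and 42 of the 67 lay above the others' 90th percentile of 18.3%. Genes at least 2.5-fold above input with Slr1p and not with IgG had a similar median of 20.5%. Those raised with IgG and not with Slr1p had 13.7%. Glutamate codons had medians of 10.2% in members and 6.38% in the others, and lysine codons had medians of 9.05% in members and 6.44% in the others. Outside these codons the purine share was 45.6% in members and 42.8% in the others. At the third position of all codons, which includes lysine and glutamate codons and their closing purine, it was 50.6% in members and 44.4% in the others.

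A contributed more than G. The median share of A in the coding sequence was 34.6% in members and 29.9% in the other coding genes, and the median share of G was 21.8% in members and 20.4% in the others. GC content of the transcript was 37.3% in both sets. The untranslated regions differed less: the 3′ UTR had a median purine share of 48.2% in 61 members and 46.3% in 4246 others, and the 5′ UTR had 47.1% in 50 members and 46.5% in 3539 others, counting UTRs of at least 30 bases. The 3′ UTR itself was shorter, with a median of 145 bases in members and 251 bases in the other coding genes. It was also shorter in genes at least 2.5-fold above input with Slr1p alone (137 bases) or with IgG alone (194.5 bases). Of 61 members with an annotated 5′ UTR, 7 (11.5%) had a run of at least 5 pyrimidines at or within a few bases of the annotated start. The same held for 10.7% of 4243 other coding genes. No particular first base was required, so this does not count starts of the kind LARP1 is known to bind.

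The same feature ran through the whole transcriptome in both kinds of precipitate. When the 4567 annotated coding genes were split into 10 equal bins (deciles) by coding purine share, the median log2 fold change of Slr1p precipitate over input was -0.87 in the lowest decile and 0.99 in the highest, and that of IgG precipitate over input was -0.91 in the lowest and 0.60 in the highest. Across these genes the rank correlation (Spearman) of purine share was 0.51 with Slr1p over input and 0.27 with IgG over input, as a description over genes that share libraries. Of the 457 genes in the highest decile, 42 (9.19%) were members, and the decile next to it held 7 members of 457 genes (1.53%). The lowest decile held 6 members of 457 genes (1.31%), near the share of the decile next to the highest. Deciles 3 and 4, counted from the lowest, held 0 members. Within the highest decile, members were 16 of 115 genes (13.9%) with transcripts over 1745 bases and 26 of 342 (7.60%) with shorter ones. Among the other purine shares they were 0.599% of the longer and 0.619% of the shorter genes.

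**Figure D2:**
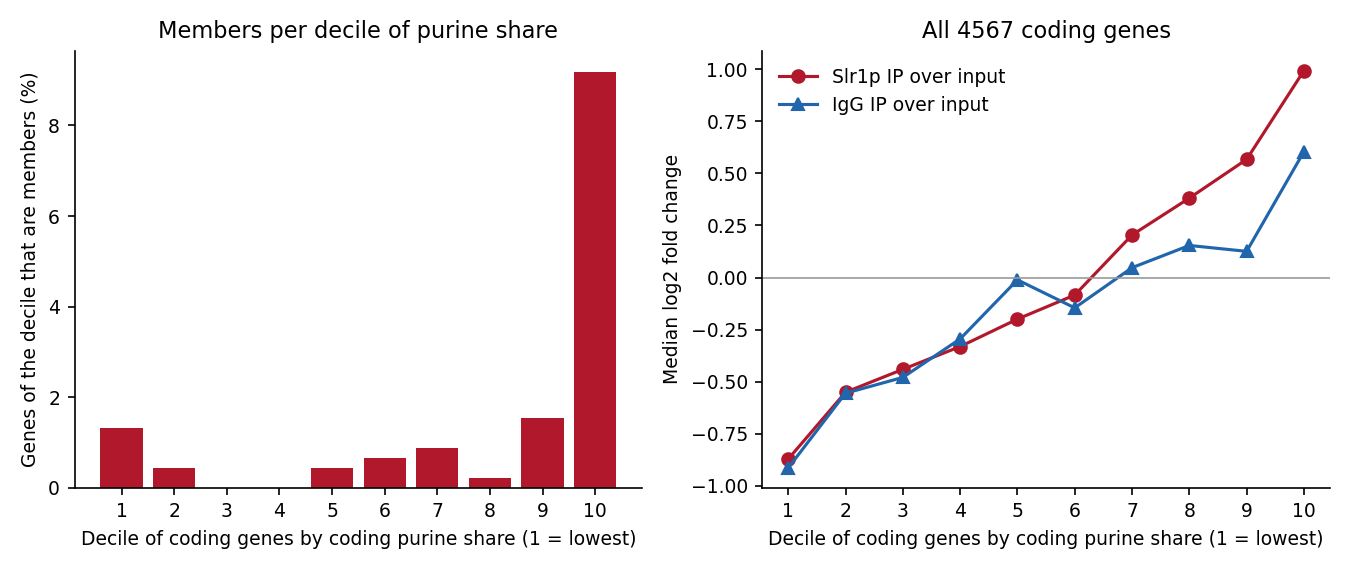
Left, share of genes in each decile of coding purine share that are members (vertical axis, %); right, median log2 fold change over input of all 4567 coding genes in each decile, for Slr1p precipitates (red circles) and the IgG precipitate (blue triangles). The highest decile holds 42 of the 67 annotated members, and the medians of both precipitates run from below 0 in the lowest decile to above 0 in the highest.

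Sets raised in one kind of precipitate alone differed in base composition and length. The 23 genes at least 2.5-fold above input with Slr1p and not with IgG had a median purine share of 57.8% and a median transcript of 843 bases. The 526 annotated genes raised with IgG and not with Slr1p had 50.9% and 3574.5 bases, and the 187 lost from both had 46.1% and 1496 bases. In length the 68 lay between the genes raised with Slr1p alone and those raised with IgG alone, with a median transcript of 1510 bases, against 1747.5 bases in the other coding genes. By composition they were near the genes raised with Slr1p alone, and their lengths spread from 273 bases (SPAPB18E9.05c) to 14352 bases (mdn1).

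In the rule's own terms, the members were raised over a narrower range of factors with Slr1p than with IgG. The rule cuts both ranges off below 2.5. Lift here means the lowest of the 3 precipitate values divided by the higher input value. It ranged from 2.5 to 8.0 with a median of 3.05, and reached 4 in 12 members. The lower Slr1p value alone was also 2.5 to 8.0 times the higher input, with a median of 3.05. The IgG value alone was 2.52 to 58.5 times the higher input, with a median of 4.79, and exceeded 10 times in 20 members. The IgG value was above both Slr1p values in 50 members, between them in 9 and below both in 9. With edgeR's quasi-likelihood test, all 68 were called higher with Slr1p than in input, as were 35% of the 6376 genes tested, and all 68 higher with IgG than in input, as were 34.1%. Because the rule used these contrasts, no inference is drawn from the counts. The members' median log2 fold change was 1.91 for Slr1p over input and 2.25 for IgG over input, against 0.03 and -0.06 for all genes tested.

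**Figure D3:**
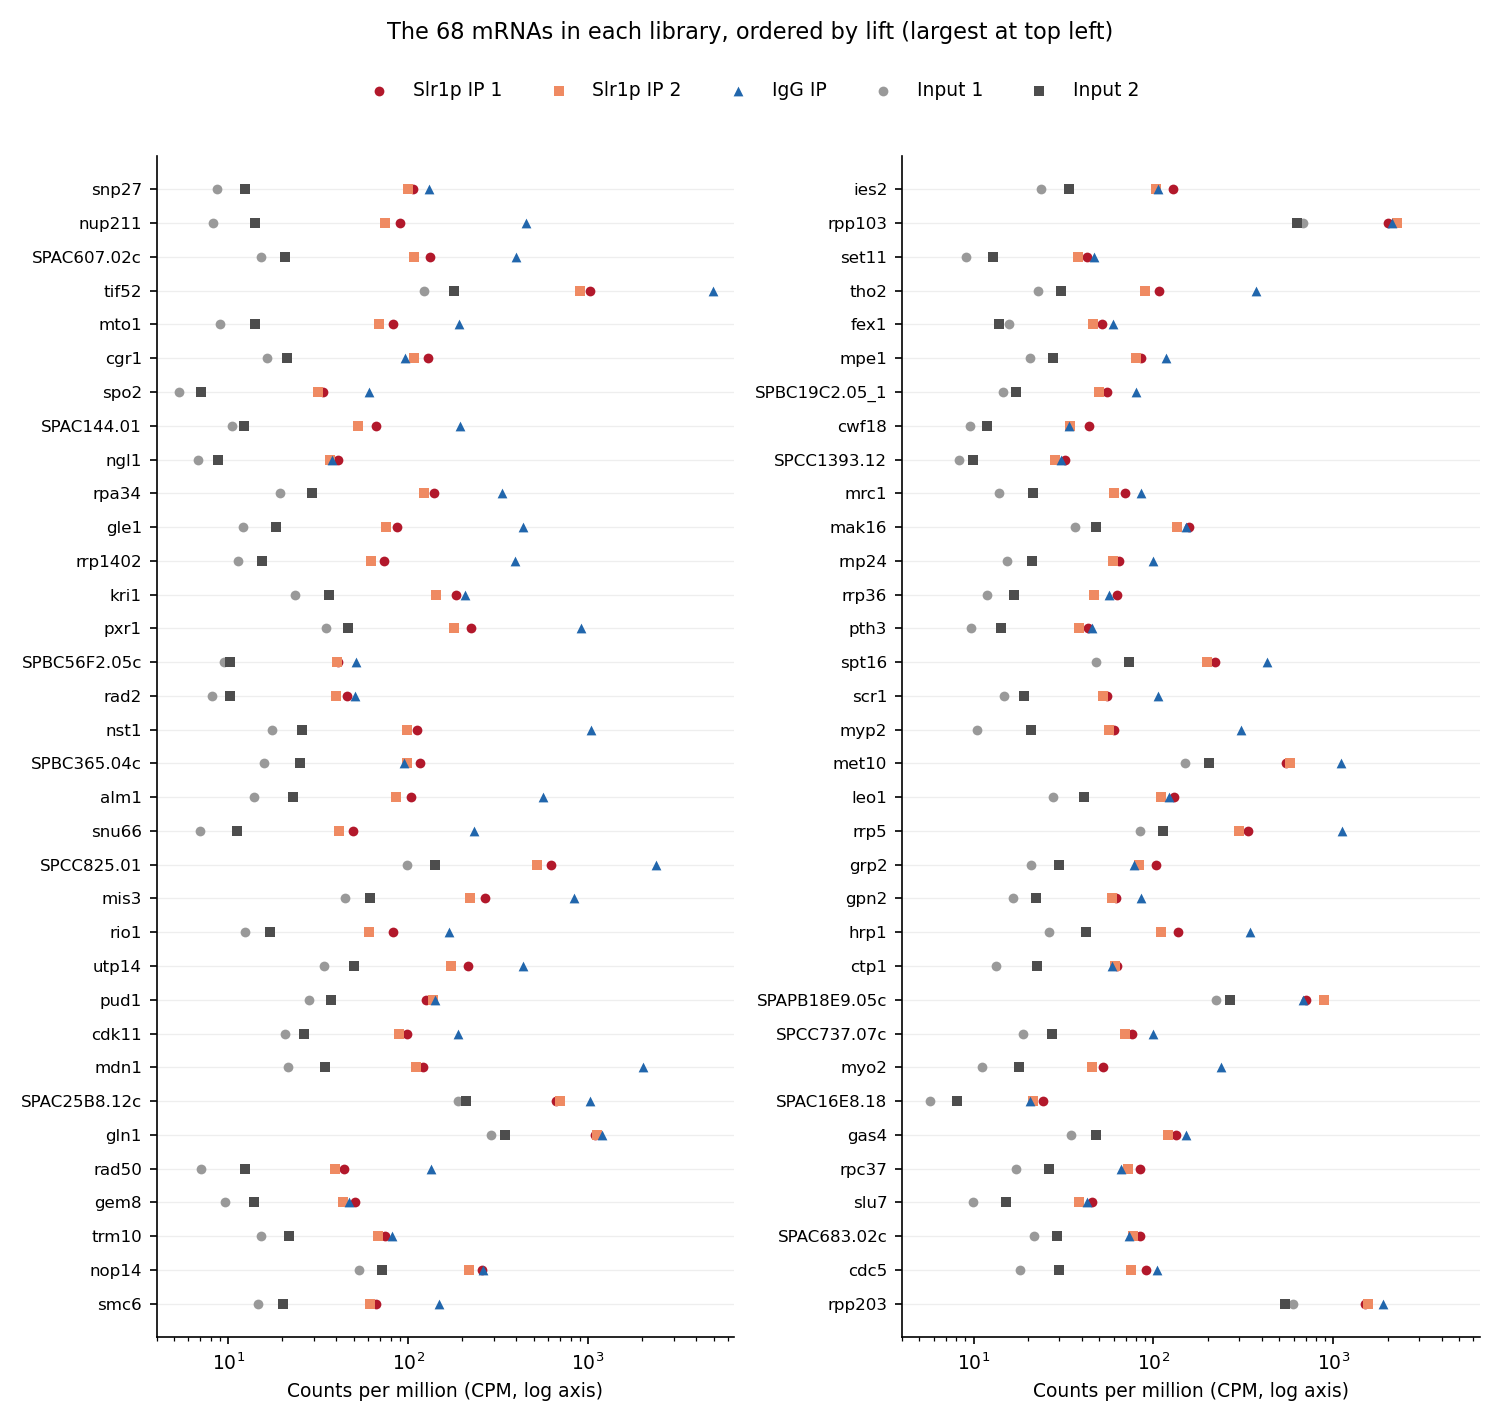
CPM (horizontal log axis) of each of the 68 mRNAs in the Slr1p precipitates (red circle, orange square), the IgG precipitate (blue triangle) and the inputs (grey circle, dark square), ordered by lift from top left to bottom right. As the rule requires, in every row the precipitates lie to the right of the inputs by at least 2.5-fold. The triangle lies farthest right in 50 rows.

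Ribosome assembly was the largest group, with 13 members when the 68 were sorted by the product names of the annotation. Their median lift was 3.55, their median coding purine share 59.7%, and 10 of the 13 lay above the others' 90th percentile. The group held mRNAs for early nucleolar factors and for late remodelling enzymes.

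The large-subunit factor cgr1 (SPAC1556.05c) had 130 and 107 CPM with Slr1p, 96.7 CPM with IgG, and 16.5 and 21.2 CPM in the inputs. Both Slr1p values were above the IgG value, and the rule itself sets all 3 above the inputs. Its mean Slr1p value was 1.23 times the IgG value, the highest ratio among the 68. In rrp1402 (SPBC947.07), a further ribosome biogenesis factor, the order was the other way. It had 73.6 and 62.3 CPM with Slr1p, 392 CPM with IgG, and 11.4 and 15.4 CPM in the inputs.

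Midasin (mdn1, SPCC737.08), the giant ATPase that strips assembly factors from the large subunit precursor, had the lowest ratio. It had 121 and 111 CPM with Slr1p, 2019 CPM with IgG, and 21.6 and 34.5 CPM in the inputs. The IgG value was 58.5 times the higher input, and the mean Slr1p value was 0.0574 of the IgG value. The mRNA of pxr1 (SPAC890.05), of the PINX1 family, had 224 and 180 CPM with Slr1p, 919 CPM with IgG, and 35.0 and 46.3 CPM in the inputs. The rRNA-processing factor mis3 (SPBC25B2.05) had 268 and 220 CPM with Slr1p, 836 CPM with IgG, and 44.4 and 61.5 CPM in the inputs. In both of these mRNAs the IgG value was above both Slr1p values, while the rule itself sets the inputs lowest.

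The other 8 of the group were kri1, SPBC365.04c, rio1 (a protein kinase of small-subunit maturation), utp14, nop14, mak16, rrp36 and rrp5. Their lifts ran from 2.63 in rrp5 to 3.93 in kri1. Utp14, Nop14 and Rrp5 act with the U3 small nucleolar RNA on the precursor rRNA. Their IgG values were 3.14 (mak16) to 9.82 (rio1) times the higher input. Over the whole group of 13, IgG was above both Slr1p values in 9.

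A wider list of ribosome assembly, 87 genes taken by keyword from the product names, held 8 members (9.20%). Over all genes with at least 5 CPM in both inputs, SPNCRNA genes left out, members were 68 of 4608. Of the 87, members included, 61 were called higher and 14 lower with Slr1p than in input, with a median log2 fold change of 0.85. With IgG 53 were called higher and 20 lower than in input, with a median of 0.75. For Slr1p over IgG, 31 were called higher and 29 lower, near the shares over all genes tested of 34% higher and 32.3% lower. Over all 6376 genes tested, the calls for Slr1p over input were 35% higher and 34.2% lower, and those for IgG over input were 34.1% higher and 36.5% lower. The median coding purine share of the list was 54.0%.

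The nuclear pore gave 3 members, all with far higher values in IgG than with Slr1p. Nup211 (SPCC162.08c), a long coiled-coil protein of the nuclear basket, had 90.4 and 74.6 CPM with Slr1p, 453 CPM with IgG, and 8.25 and 14.1 CPM in the inputs. The related nucleoporin alm1 (SPAC1486.04c) had 104 and 86.0 CPM with Slr1p, 564 CPM with IgG, and 14.0 and 23 CPM in the inputs. The mRNA export factor gle1 (SPBC31E1.05) had 87.3 and 75.3 CPM with Slr1p, 434 CPM with IgG, and 12.1 and 18.5 CPM in the inputs. The IgG value was above both Slr1p values in all 3, and it stood 23.5 to 32.1 times above the higher input. Of 42 pore and karyopherin genes, these 3 included, 9 were called higher and 20 lower with Slr1p than in input, with a median log2 fold change of -0.22, where 35% of all genes tested were called higher and 34.2% lower. With IgG 29 were called higher and 7 lower than in input, with a median of 0.76, where 34.1% of all genes tested were called higher and 36.5% lower.

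Splicing, mRNA processing and export gave 7 members. The largest lift of all, 8.0, was that of snp27 (SPCC162.01c), a subunit of the U4/U5/U6 particle of the spliceosome. It had 106 and 99.5 CPM with Slr1p, 131 CPM with IgG, and 8.64 and 12.4 CPM in the inputs. The 3 precipitates lay close together and far above both inputs. Its log2 fold change was 3.30 ± 0.14 (SE) with Slr1p and 3.53 ± 0.16 with IgG, both over input. The SE was derived from the F value of the quasi-likelihood test. With 1 IgG library, the ± 0.16 holds no spread between IgG precipitates.

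Another subunit of the same particle, snu66 (SPAC167.03c), had 49.2 and 41.6 CPM with Slr1p, 231 CPM with IgG, and 6.97 and 11.2 CPM in the inputs, so that IgG stood well above Slr1p. The splicing factors cdc5 and slu7 and the protein Cwf18 had lifts of 2.5, 2.53 and 2.86. Tho2, a subunit of the THO complex that couples transcription to export, had a lift of 2.93, with IgG at 12.1 times the higher input. Mpe1, a ubiquitin ligase that in budding yeast acts in mRNA 3′ end formation, had a lift of 2.89.

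Transcription and chromatin gave 10 members, with a lower median purine share of 54.3% and 3 above the others' 90th percentile. The RNA polymerase I subunit gene rpa34 (SPBC11G11.05) had 140 and 122 CPM with Slr1p, 334 CPM with IgG, and 19.4 and 29.3 CPM in the inputs. The RNA polymerase III subunit gene rpc37 (SPCC330.13) had 84.3 and 71.8 CPM with Slr1p, 66.2 CPM with IgG, and 17.2 and 26.2 CPM in the inputs. IgG was above Slr1p in rpa34 and below it in rpc37, and the rule itself sets all precipitates above the inputs. The rest were the transcription factor SPBC56F2.05c (lift 3.89), the kinase cdk11 (3.36), the Ino80 subunit ies2 (3.05), the FACT histone chaperone spt16 (2.72), the glucose repressor scr1 (2.72), the Paf1 complex gene leo1 (2.68), the GTPase gene gpn2 (2.62) and the CHD remodeller hrp1 (2.61).

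DNA repair and replication gave 6 members. Rad50 belongs to the complex that holds broken DNA ends, and Ctp1 works with it in trimming them. Rad50 mRNA had a lift of 3.15 with IgG at 10.8 times the higher input, and ctp1 a lift of 2.59 with IgG the lowest of the 3 precipitates. The flap endonuclease gene rad2 had a lift of 3.87, smc6 of 3.05, the checkpoint gene mrc1 of 2.83 and the helicase gene SPCC737.07c of 2.55. In 5 of the 6, IgG was above both Slr1p values.

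Translation and tRNA modification gave 6 members, among them the mRNA with the most IgG reads of the 68. The initiation factor gene tif52 (SPAC56F8.03) had 1031 and 908 CPM with Slr1p, 4957 CPM with IgG, and 122 and 179 CPM in the inputs. The IgG value was above both Slr1p values and was 27.6 times the higher input. By contrast, the genes of the acidic ribosomal stalk proteins had Slr1p and IgG values near each other, with ratios of mean Slr1p to IgG of 1.01 in rpp103 and 0.812 in rpp203. The P1 gene rpp103 (SPCP1E11.09c) had 2020 and 2254 CPM with Slr1p, 2113 CPM with IgG, and 676 and 629 CPM in the inputs. The P2 gene rpp203 (SPAC1071.08) had 1488 and 1552 CPM with Slr1p, 1873 CPM with IgG, and 595 and 538 CPM in the inputs.

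Those stalk proteins were the 2 ribosomal proteins among the members. The keyword list of cytosolic ribosomal proteins also caught set11, whose product is a methyltransferase of a ribosomal protein, with a lift of 2.96. Of the 138 genes on that list, 45 were called higher and 18 lower with Slr1p than in input, with a median log2 fold change of 0.22, where 35% of all genes tested were called higher and 34.2% lower. With IgG 6 were called higher and 103 lower than in input, with a median of -1.12, where the shares over all genes tested were 34.1% and 36.5%. Trm10, a tRNA methyltransferase, had a lift of 3.09 and the peptide release factor gene pth3 had 2.72.

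The cytoskeleton and Golgi gave 4 members. Mto1 (SPCC417.07c), which links the gamma-tubulin complex to sites of microtubule growth, had 82.1 and 68.6 CPM with Slr1p, 193 CPM with IgG, and 9.0 and 14.0 CPM in the inputs. The myosin II heavy chain gene myp2 (SPAC4A8.05c) had 60.7 and 56.4 CPM with Slr1p, 307 CPM with IgG, and 10.5 and 21.0 CPM in the inputs. In both, IgG was above both Slr1p values, and the rule itself sets the inputs lowest. The second myosin II heavy chain gene, myo2, had a lift of 2.54, with IgG at 13.3 times the higher input. In grp2 (SPBC365.11), which encodes a Golgi GRIP domain protein, IgG was lowest of the precipitates: it had 103 and 83.4 CPM with Slr1p, 78.2 CPM with IgG, and 20.9 and 29.7 CPM in the inputs.

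Metabolism, transport and cell surface gave 7 members, which as a group were poor in purines, with a median share of 47.0% and 1 above the others' 90th percentile. Glutamine synthetase (gln1, SPAC23H4.06) had 1089 and 1120 CPM with Slr1p, 1198 CPM with IgG, and 289 and 345 CPM in the inputs. The sulfite reductase subunit gene met10 (SPCC584.01c) had 547 and 573 CPM with Slr1p, 1102 CPM with IgG, and 149 and 204 CPM in the inputs. The nucleotide-sugar phosphatase gene SPAC25B8.12c had 665 and 696 CPM with Slr1p, 1021 CPM with IgG, and 190 and 210 CPM in the inputs. In each of these 3 the second Slr1p replicate was the higher one, whereas the first was higher in 61 of the 68. The other 4 were the peptide N-glycanase gene ngl1 (SPBC1709.14; lift 4.19), pud1 (3.36), the fluoride exporter gene fex1 (2.93) and the glucanosyltransferase gene gas4 (2.53). The fex1 reads are uncertain, since its coding sequence is 99.9% identical to that of fex2 over 936 bases.

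The remaining 12 members were uncharacterised or had products outside these groups. The uncharacterised gene SPAC607.02c had 132 and 108 CPM with Slr1p, 396 CPM with IgG, and 15.3 and 20.8 CPM in the inputs, the third largest lift (5.18). The ATP-binding cassette protein gene SPCC825.01 had 624 and 521 CPM with Slr1p, 2374 CPM with IgG, and 98.7 and 142 CPM in the inputs. IgG was the highest library in both, and in nst1 (SPAC29E6.10c), which had 112 and 99.1 CPM with Slr1p, 1041 CPM with IgG, and 17.6 and 25.7 CPM in the inputs. The short uncharacterised gene SPAPB18E9.05c behaved otherwise, with 705 and 882 CPM with Slr1p, 679 CPM with IgG, and 222 and 265 CPM in the inputs. The others were spo2 (SPBC16C6.14; lift 4.50), which encodes a protein of spore formation, SPAC144.01 (4.27), gem8 (3.11), SPBC19C2.05_1 (2.89), SPCC1393.12 (2.86), the RNA-binding protein gene rnp24 (2.79), SPAC16E8.18 (2.54) and the zinc finger protein gene SPAC683.02c (2.52).

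How the IgG value compared with Slr1p went with transcript length. The 17 members with transcripts of at least 3000 bases had a median ratio of Slr1p to IgG of 0.285, with 14 under 0.5. The 33 members of 1000 to under 3000 bases had a median of 0.793, and the 17 shorter members had 0.958. The IgG value was a median of 12.1 times the higher input in the longest class and 3.38 times in the shortest. The Slr1p lift hardly moved, at 2.93 in the longest and 3.11 in the shortest class. Across the 67 members the rank correlation of length with the ratio was -0.63, and over all 4567 coding genes length had a rank correlation of 0.53 with IgG over input and -0.07 with Slr1p over input. Purine share had a rank correlation of -0.00 with the ratio among the members and of 0.40 with lift. Exceptions in length were rrp1402 and SPAC607.02c, at 1155 and 954 bases, whose ratios were 0.173 and 0.303, and mrc1, at 3186 bases with 0.769.

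**Figure D4:**
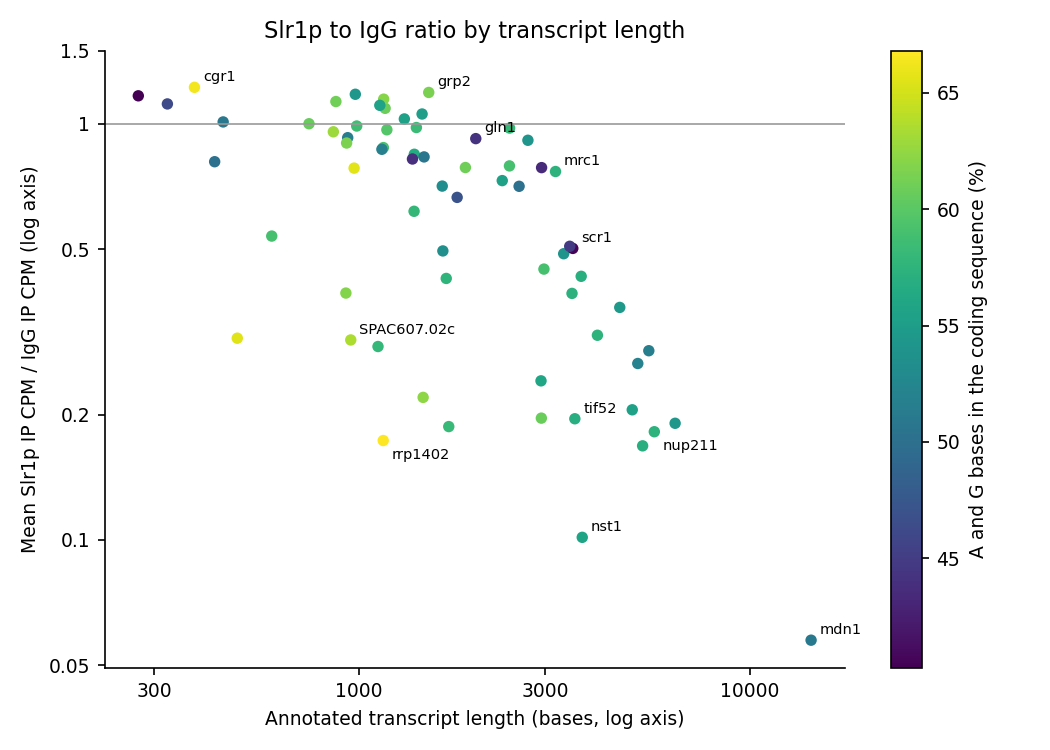
Mean Slr1p CPM divided by IgG CPM (vertical log axis) against annotated transcript length (horizontal log axis, bases) for 67 members, coloured by coding purine share (%). The points fall from about the line at 1 among short transcripts to 0.0574 at mdn1, and the most purine-rich points (yellow) stand at 0.173 (rrp1402) as well as at 1.23 (cgr1).

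For Slr1p over IgG directly, 34 of the 68 were called lower, as were 32.3% of all genes tested, and 1, cgr1, was called higher, as were 34%. The exclusion at 1.5 times IgG bounds these counts, so nothing is read from them. The members' median log2 fold change was -0.35, against 0.07 for all genes tested. When library totals alone were used for scaling, cgr1 was not called and the members' median was -0.47. That scaling moved the all-gene median of IgG over input to 0.06, from -0.06 with TMM scaling.

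The inputs differed, mostly in 1 direction. Input 2 was above input 1 in 65 of 68 members, with a median ratio of 1.41 in the 67 annotated members, against 1.15 in the other coding genes, of which 3375 of 4500 had the higher value in input 2. The higher input, on which the rule rests, was thus nearly always the second. The shift was not particular to the members. The median ratio was 1.37 in genes raised with Slr1p alone, 1.33 in those raised with IgG alone and 0.914 in those lost from both. Without input replicate 2 the rule took 201 mRNAs, and without Slr1p replicate 2 it took 107, each time including all 68. Leaving a library out can only loosen the fold limit, so nothing is read from the 68 being kept. Most members held a small share of the input reads, with a mean input under 30 CPM in 49 and at least 100 CPM in 8. The median was 19.5 CPM in annotated members and 46.2 CPM in the other coding genes. In counts, the median of the 68 was 1038 in input 1 and 1432 in input 2.

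Just inside 2.5-fold lay rpp203, cdc5 and SPAC683.02c, with lifts of 2.5, 2.5 and 2.52. Just outside lay the ribosome assembly gene utp3 and the chromatin remodeller gene swr1, both at 2.5 after rounding, and the rRNA methyltransferase gene rrp8 (2.46). Their coding purine shares were 58.2% in utp3, 55% in swr1 and 57.3% in rrp8. The RNA polymerase subunit gene rpc10, left out for a lower Slr1p value 1.51 times IgG, had 182 and 173 CPM with Slr1p, 115 CPM with IgG, and 31.5 and 43.0 CPM in the inputs. The 4 SPNCRNA genes left out had lifts of 2.66 to 3.85.

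Many members share their place in the genome with another gene. At least 50% of the span of 27 of 67 members (40.3%) was covered by another counted gene, all on the opposite strand, against 849 of 4500 other coding genes (18.9%). The library kit keeps strand, but whether counting used it is not given in the sources used here, so reads of such pairs may not be told apart. For cdc5 the overlapping gene SPAC644.13c had 25.7 CPM with Slr1p (mean), 13.2 CPM with IgG and 97.2 CPM in input (mean), against 24.1 CPM for cdc5 in input. The overlapping gene had the higher mean input in 10 of the 27, the higher IgG value in 1 and the higher Slr1p mean in 0. The rule chose the members, and not the overlapping genes, for high precipitate values. The low counts in the precipitates follow largely from that and say nothing about shared reads. In the 40 members without such cover the median coding purine share was 55.8%, and in the 27 with it 57.4%.

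Members also lay near each other more often than the other coding genes lay near a member. Another member was within 5 coding genes for 18 of 67 (26.9%), and a member was within that distance for 523 of 4500 others (11.6%). Direct neighbours were rnp24 with rad2, SPBC365.04c with slu7, and SPCC737.07c with mdn1. By chromosome, members were 32 of 2080 annotated coding genes on I, 19 of 1686 on II and 16 of 801 on III. Single-exon genes were 42 of the 67 (62.7%), against 2248 of the 4500 others. Genes with more than 1 exon were 37.3% of members, 38.2% of genes raised with IgG alone and 60.9% of those raised with Slr1p alone.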

How the data were processed

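The authors deposited a table of unnormalised counts for each of the 5 libraries, covering 6727 genes. Per the submitters' processing notes, the tools were HTSeq 0.6.1p2, STAR 2.6.0c, Trim Galore, FastQC 0.11.5 and bcl2fastq 2.20. For build, annotation and strand setting: not given in the sources used here. Per the labels' protocols, libraries were made with a directional NEBNext Ultra II kit. The files hold 0 lines for unassigned reads.

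CPM were computed from library totals (Python 3.11.15, pandas 2.3.3). The tests were edgeR 4.0.16 quasi-likelihood fits in R 4.3.3 on all 5 libraries with TMM scaling and 1 mean per group. The filterByExpr filter removed 351 genes, and calls were made at a Benjamini-Hochberg adjusted p under 0.05 over 6376 genes. The single IgG library is assumed to vary like the replicated groups, and the residual degrees of freedom were 2. On counts simulated for Slr1p over input with 200 changed genes, the fit recovered 61% of changes of 0.6 and 95% of changes of 1.3 on the log2 scale. The simulation gave all genes a single spread, and in the data 4413 of 6376 genes were called for this contrast. The recovered shares therefore need not hold for the data. The labels name no molecular identifiers, so several reads may come from 1 molecule. The replicates are labelled biological, with no culture named.

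Transcript models, names and sequences came from RefSeq assembly ASM294v3, which may not be the authors' build; 6561 of 6727 identifiers and 67 of 68 members matched. One coding window is not reported here. Copies were searched with BLAST 2.17.0. The members, the 28 keyword lists (27 matched a gene, 14 held a member) and the roles were chosen with earlier results of these data known. Genes named with values were the 12 with the largest lift, the 8 with the highest input, the 4 lowest and 4 highest in Slr1p over IgG, the 3 longest and 3 shortest, the top 3 of each list with at least 3 members, and the nearest genes at each limit; mis3, leo1, scr1, snu66 and the other members were named after their values were seen. Alternatives tried were DESeq2 1.42.0, library totals, no filter, length, GC and purine trends, a replicate block, other limits of the rule, and leaving out each replicate.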

Additional observations from a re-analysis of the deposited data

How the results depend on the processing

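The 28 genes named by rule kept direction and call over input, with Slr1p and with IgG, under all 10 alternative fits. They were chosen for high values over input in these same libraries, so little else could come out and nothing is read from it. In the main fit 35% of all 6376 genes tested were called higher with Slr1p and 34.1% with IgG. Removing each library's trend with length, GC and coding purine share, added after seeing the data, lowered the members' median log2 fold change to 1.20 for Slr1p over input and 1.75 for IgG over input, by construction since members are purine-rich; with it 65 of the 68 were called higher with IgG. With library totals alone the median of Slr1p over IgG was -0.47, and the share of calls that were higher was 44.9%, against 51.2% with TMM. The number of members was 138 at a 2-fold and 35 at a 3-fold limit. It was 68 to 201 when 1 replicate was left out, 92 without the IgG library and 599 without the Slr1p libraries. The 2-fold set and the sets with libraries left out included all 68, which their looser limits largely fix in advance. With TMM-scaled library sizes the number was 87, of which 63 were among the 68. The set of 599 had a median length of 3437 bases and a median purine share of 51.2%, against 57.0% in the set of 92. By coding length the members' median was 1140 bases. Leaving out 1 replicate gave 3394 to 4840 genes called for Slr1p over input, 4133 to 4888 for IgG over input and 3369 to 4790 for Slr1p over IgG. The labels do not say whether the replicate numbers pair Slr1p and input samples. Replicate deviations of the 2 groups had r = -0.05 over 6376 genes, which cannot decide it, since each group gives 1 difference. With the replicate block 4210, 4322 and 4054 genes were called, against 4413, 4501 and 4227 without it. The members' medians with the block were 1.92, 2.26 and -0.35. The IgG library, with the lowest depth and no replicate, limits every comparison with IgG.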
